A study of Homo sapiens with 6 samples.

Results

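Genes that encode the receptors and adaptors through which insulin, insulin-like growth factors and epidermal growth factors reach AKT were followed here. The members were chosen by name: the adaptors IRS1 and IRS2, the receptors INSR and IGF1R, and the ERBB family (EGFR, ERBB2, ERBB3 and ERBB4). All 8 had a row in the deposited table of 20333 gene intervals, all had more than 10 counts in every library, and all passed the filter on low counts. The assay was PRO-seq (precision run-on sequencing of nascent RNA), in which polymerases already engaged on DNA extend their RNA in permeabilised cells, so that reads report transcription in progress rather than stored RNA.

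T47D is a line of luminal breast cancer cells, which the labels list as estrogen receptor positive and HER2 negative, and it was grown in RPMI with fetal bovine serum. Cells were treated for 5 h in growth factor-complete medium with the solvent DMSO, with 500 nM of the catalytic AKT inhibitor GDC0068, or with 100 nM of the AKT degrader INY-05-040, called Degrader as in the labels. The doses differ because they were set to give like suppression of signalling downstream of AKT. Each of the 3 arms had 2 libraries, 1 from each of 2 independent experiments, and the replicate number is taken to mark the experiment. One line at a single time point was used, and whether more cells transcribed a gene or each cell transcribed it more cannot be told apart in such bulk libraries.

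Ligand binding to INSR or IGF1R makes the receptor kinase phosphorylate IRS1 and IRS2, which then recruit PI3K and lead to activation of AKT. Of the ERBB receptors, ERBB2 has no known ligand and ERBB3 has little kinase activity of its own, so ERBB3 signals with a partner, often ERBB2, and binds PI3K strongly once phosphorylated. Active AKT holds FOXO transcription factors outside the nucleus. When AKT is blocked, FOXO factors enter the nucleus and raise transcription of several receptor and adaptor genes, IRS2, INSR and ERBB3 among the best known, which is why these genes are called feedback genes of the pathway.

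The starts of IRS1, IRS2 and INSR are shown because IRS2 and INSR rose under both drugs, while IRS1, a close relative of IRS2, was called under neither. Each line gives the 250 bases before the RefSeq start site (GRCh38.p14), 5′ to 3′ on the strand of the gene, and capitals mark the forkhead core AAACA or its reverse complement TGTTT. The windows lie at chr2:226799821-226800070 (IRS1), chr13:109786584-109786833 (IRS2) and chr19:7294415-7294664 (INSR), all on the minus strand.
IRS1: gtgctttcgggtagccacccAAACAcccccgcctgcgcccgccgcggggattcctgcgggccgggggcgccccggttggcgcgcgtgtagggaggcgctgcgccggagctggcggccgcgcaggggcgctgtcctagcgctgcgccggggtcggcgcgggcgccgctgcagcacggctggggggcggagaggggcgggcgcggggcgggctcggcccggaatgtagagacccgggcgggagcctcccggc
IRS2: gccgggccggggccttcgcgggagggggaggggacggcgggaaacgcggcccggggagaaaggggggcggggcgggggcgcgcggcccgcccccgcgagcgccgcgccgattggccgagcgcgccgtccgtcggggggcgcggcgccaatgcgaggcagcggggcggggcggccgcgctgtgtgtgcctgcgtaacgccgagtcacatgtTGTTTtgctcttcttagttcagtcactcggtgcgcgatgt
INSR: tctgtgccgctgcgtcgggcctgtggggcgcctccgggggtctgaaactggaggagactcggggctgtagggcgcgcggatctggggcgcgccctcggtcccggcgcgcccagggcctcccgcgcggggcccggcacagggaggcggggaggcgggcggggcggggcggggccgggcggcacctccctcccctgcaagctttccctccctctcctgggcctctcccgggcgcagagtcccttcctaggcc
The IRS1 window holds 1 core, which begins 230 bases before the start site, and the IRS2 window holds 1, which begins 40 bases before it. In the INSR window neither form occurs. The longer FOXO motif GTAAACA, or TGTTTAC on the other strand, which contains the core, was found in none of these windows. Over 34788 distinct promoter windows of the same length, 40.4% held the core and 2.98% held the longer motif. All 3 windows were rich in G and C (80.8%, 76.4% and 78.4%, against a median of 58% over all windows). The shares were not computed for windows of like composition, so how common a core is among such windows was not tested. The start sites of the deposited intervals of IRS1 and INSR were the RefSeq start sites, and that of IRS2 lay 7 bp away. Of the members not shown, the windows of IGF1R, ERBB2 and ERBB4 held 0 cores. EGFR had 2 windows, 1 with 0 cores and 1 with 2, the latter at a start site 90822 bp from that of its interval. No window was available for ERBB3.

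Total counts per library ranged from 25371819 to 32192576, and libraries of an arm correlated across genes with a Pearson's r of 0.995, 0.995 and 0.995 on the log2 scale, where genes are not independent replicates. The 10 luminal breast markers, such as ESR1, GATA3 and KRT8, were all present, with a summed level between 5706 and 6116 CPM (counts scaled to library size) in every library. Of 12 markers of basal cells, fibroblasts and leukocytes, 1 (CD68) had a row in the table, at 77.2 to 83.6 CPM in DMSO, 62.6 to 67.6 under GDC0068 and 55.1 to 64.4 under Degrader. CD68 was called lower under Degrader (log2 fold change -0.43, edgeR adjusted p = 0.00361) and under GDC0068 (-0.30, edgeR adjusted p = 0.0487). Its part in the other results was not tested. Because CPM are relative to the whole library, every change below is relative to the bulk of genes.

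The levels of the 8 genes per length of interval spanned a wide range in DMSO. ERBB3 was the highest at 6.46 ± 0.313 CPM per kb (SD, n = 2 here and throughout), followed by ERBB2 at 6.12 ± 0.156 and IGF1R at 2.51 ± 0.0419. These placed ERBB3 and ERBB2 above 86.3% and 85.3% of the 19902 genes tested. Such ranks compare intervals of unequal length, with a median of 14391 bp over all genes, 23334 bp for ERBB3 and 1163062 bp for ERBB4. An effect of length on the ranks was not tested. IRS1 stood at 1.60 ± 0.23 CPM per kb, close to the median of all genes (1.69). ERBB4 (0.492 ± 0.0531), INSR (0.326 ± 0.00608), IRS2 (0.325 ± 0.00405) and EGFR (0.298 ± 0.0187) lay in the lowest 17% of genes. Neighbours in this order had DMSO libraries that did not overlap, with the exception of INSR and IRS2, whose means differed by a factor of 1.00. ERBB3 and ERBB2 differed by a factor of 1.06, a difference close to the SD of ERBB3. The ERBB2 interval of the table starts 11970 bp downstream of the RefSeq start site, so its level does not cover the first part of that gene model.

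**Figure D1:**
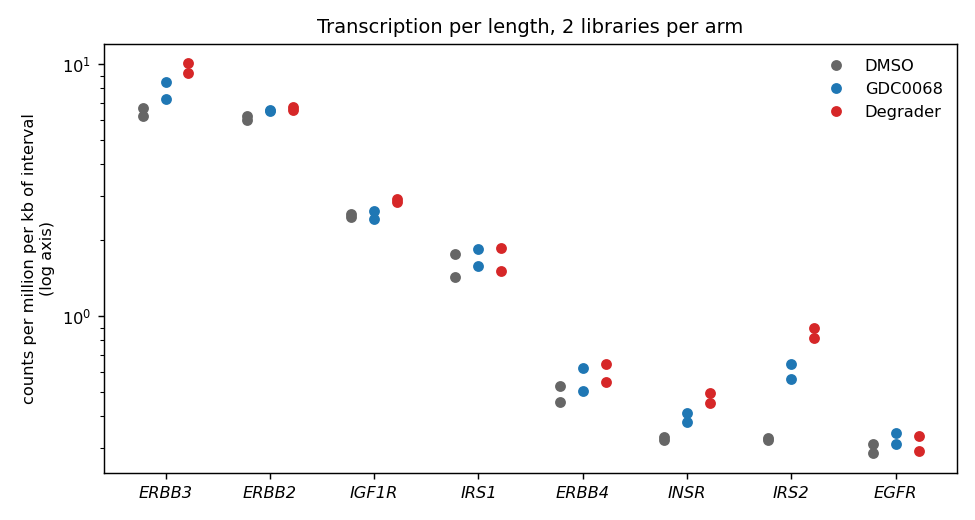
Transcription per length of the 8 genes, as CPM per kb of interval on a log axis, with the genes ordered by their DMSO mean and each point 1 library (grey DMSO, blue GDC0068, red Degrader). ERBB3 and ERBB2 are the highest at 6.46 and 6.12 in DMSO, and IRS2 moves from 0.325 in DMSO to 0.857 under Degrader.

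Under Degrader 4 of the 8 genes rose and none fell. These were IRS2, ERBB3, INSR and IGF1R, and over all 19902 genes 15.3% were called, 7.39% higher and 7.88% lower (edgeR quasi-likelihood test, Benjamini-Hochberg adjusted p under 0.05 over all genes). The median log2 fold change of the 8 was 0.24, against 0.00 over all genes. Under GDC0068 2 of the 8 rose, IRS2 and INSR, and none fell, where 3.58% of all genes were called, 1.7% higher and 1.88% lower, and the median of the 8 was 0.16 against 0.01. At an unadjusted p under 0.05 in edgeR 6 were higher and 0 lower under Degrader (14.7% and 15.2% of all genes), and 3 higher and 0 lower under GDC0068 (10.4% and 9.55%). DESeq2 called 4 higher and 0 lower under Degrader, where it called 6.41% and 7.15% of the genes it gave an adjusted p, and 3 higher and 0 lower under GDC0068 (1.76% and 2.18%). Both comparisons use the same DMSO libraries, so the 2 sets of changes are not independent. The 8 genes were chosen with earlier results of these data known. The shares over all genes are therefore a background and not a test of the list. With the replicate number as a block, which compares each treated library with the DMSO library of its own experiment, 6 of 8 were called higher under Degrader and 0 lower, where 30.7% of all genes were called, 15.1% higher and 15.7% lower. Under GDC0068 the block gave 5 of 8 higher and 0 lower, where 17.8% of all genes were called, 8.87% higher and 8.91% lower. All 8 genes stood above DMSO in both experiments under Degrader, where 37.4% of all genes did and 37.5% stood below. Under GDC0068 7 of 8 did, where 35.9% of all genes stood above and 32.5% below. The 2 Degrader libraries lay above both DMSO libraries for 6 of 8 genes and below for 0 (29.3% and 29.2% of all genes), and those of GDC0068 for 4 of 8 and 0 (26.1% and 24% of all genes).

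**Figure D2:**
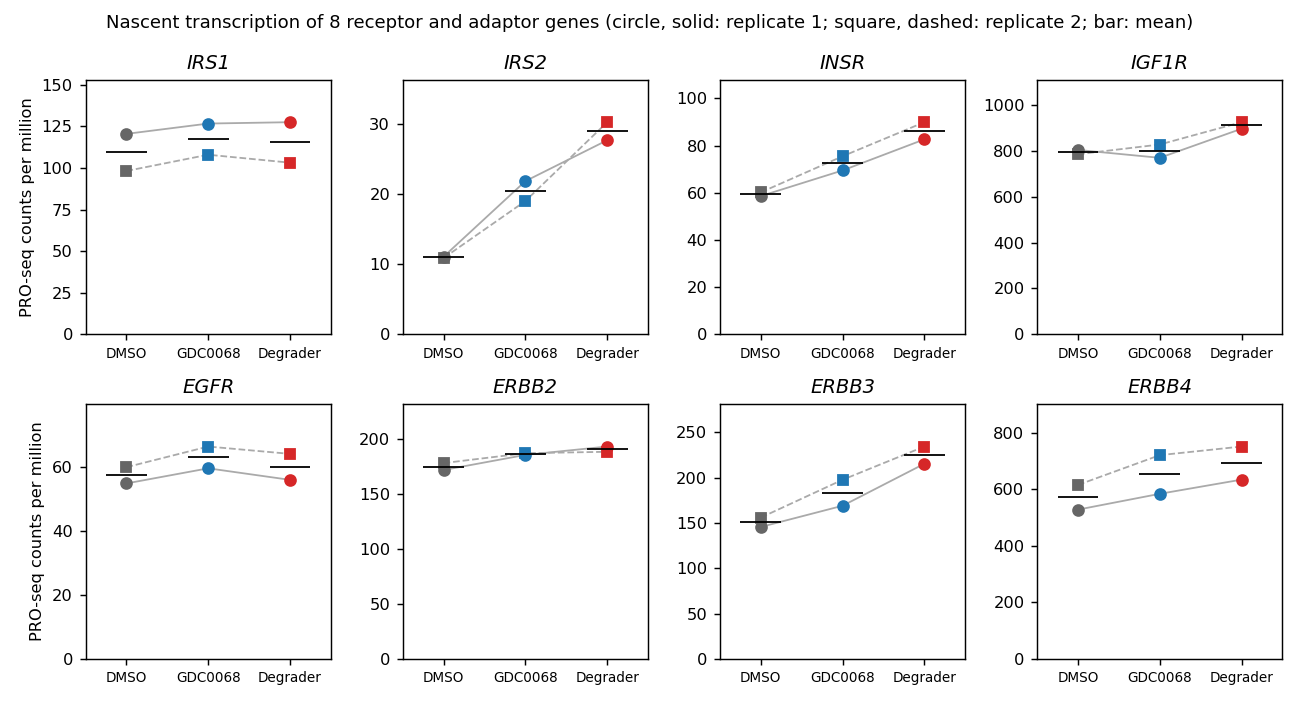
CPM of each gene in the 6 libraries, with circles and solid lines for replicate 1, squares and dashed lines for replicate 2 and black bars for the means. IRS2, INSR and ERBB3 step up from DMSO to GDC0068 and again to Degrader in both replicates, while IRS1 and EGFR show a gap between replicates about as large as the differences between arms or larger. For ERBB4 the gap is 0.22 to 0.30 on the log2 scale, near its change of 0.28 under Degrader, and its Degrader libraries lie above those of DMSO.

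IRS2 encodes the adaptor that carries much of the insulin signal in liver and in pancreatic beta cells (ENSG00000185950, chromosome 13, 109752695 to 109786576, minus strand). DMSO gave 11.1 and 10.9 CPM, GDC0068 gave 21.9 and 19.1, and Degrader gave 27.7 and 30.3. No library of one arm overlapped those of another, and the gene was the lowest of the 8 in CPM, with counting error of up to 5.8% in a library of 297 counts. The rise was 1.86-fold under GDC0068 (log2 fold change 0.89, SE 0.102, edgeR adjusted p = 0.00240) and 2.64-fold under Degrader (1.40, SE 0.100, edgeR adjusted p = 3.59e-05). In the separate experiments the log2 ratios to DMSO were 0.98 and 0.80 under GDC0068, and 1.32 and 1.47 under Degrader.

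IRS1, the other main adaptor and the closest relative of IRS2 in the list (ENSG00000169047, chromosome 2, 226731317 to 226799820, minus strand), was not called under either drug. It had 120 and 98.1 CPM in DMSO, 127 and 108 under GDC0068, and 127 and 103 under Degrader. In each arm replicate 2 was lower than replicate 1, by 0.23 to 0.31 on the log2 scale, and the arms overlapped. Its log2 fold change was 0.10 under GDC0068 (95% interval -0.14 to 0.34, edgeR adjusted p = 0.668) and 0.08 under Degrader (-0.16 to 0.32, edgeR adjusted p = 0.698). With the block the intervals narrowed to 0.03 to 0.18 and 0.00 to 0.15 (edgeR adjusted p of 0.0502 and 0.121), so both lie below the IRS2 changes.

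Set against each other within a library, the 2 adaptors shifted toward IRS2. The ratio of IRS2 to IRS1 per kb was 0.187 and 0.225 in DMSO, 0.350 and 0.357 under GDC0068, and 0.440 and 0.595 under Degrader. IRS1 stayed the more transcribed of the pair per length in every library. Such ratios do not depend on library scaling. An exact permutation test of 2 against 2 libraries cannot go below p = 0.333, so none was run on them.

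INSR, the insulin receptor (ENSG00000171105, chromosome 19, 7112265 to 7294414, minus strand), rose under both drugs. Its libraries read 58.6 and 60.2 CPM in DMSO, 69.5 and 75.5 under GDC0068, and 82.6 and 89.9 under Degrader, with no overlap between arms. The rise was 1.22-fold under GDC0068 (log2 fold change 0.29, SE 0.0619, edgeR adjusted p = 0.0315) and 1.45-fold under Degrader (0.54, SE 0.0614, edgeR adjusted p = 3.97e-04). The GDC0068 call was lost without either DMSO library or without GDC0068 replicate 2 (edgeR adjusted p of 0.192 without DMSO replicate 1, 0.109 without DMSO replicate 2 and 0.164 without GDC0068 replicate 2), with log2 fold changes of 0.27, 0.31 and 0.22.

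IGF1R, the receptor for insulin-like growth factors (ENSG00000140443, chromosome 15, 98648652 to 98964530, plus strand), had the most counts of the 8 and moved little. It gave 803 and 784 CPM in DMSO, 768 and 826 under GDC0068, and 895 and 923 with Degrader. The GDC0068 libraries lay on both sides of the DMSO libraries, and the Degrader libraries lay above all the others. The increase under Degrader was 1.15-fold (log2 fold change 0.20, SE 0.0598, edgeR adjusted p = 0.0463), a call near the threshold that was lost without the filter on low counts (edgeR adjusted p = 0.0539) and without any one of the DMSO or Degrader libraries (0.140 to 0.316 in edgeR). It held with the block (edgeR adjusted p = 2.02e-04). Under GDC0068 the log2 fold change was 0.01 (95% interval -0.12 to 0.14, edgeR adjusted p = 0.963), and in the 2 experiments it was -0.06 and 0.08. Per kb, INSR amounted to 0.127 and 0.133 of IGF1R in DMSO, 0.157 and 0.158 under GDC0068, and 0.160 and 0.169 under Degrader.

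In the ERBB family the change was largest for ERBB3, the receptor with little kinase activity that is a main route to PI3K (ENSG00000065361, chromosome 12, 56080172 to 56103505, plus strand). It had 146 and 156 CPM in DMSO, 169 and 198 under GDC0068, and 215 and 234 under Degrader, with each arm above the one before. Under Degrader it rose 1.49-fold (log2 fold change 0.58, SE 0.0737, edgeR adjusted p = 6.74e-04). Under GDC0068 its log2 fold change was 0.28 (SE 0.0739, edgeR adjusted p = 0.0584), which was not called, but it was called with the block (edgeR adjusted p = 4.51e-06) and by DESeq2 (adjusted p = 0.0303). The last 1418 bp of the interval (6.08% of it) are shared with AC034102.2 on the same strand, which had a mean of 152 CPM against 186 for ERBB3. The log2 fold change of AC034102.2 was 0.46 under Degrader (edgeR adjusted p = 2.51e-04) and 0.22 under GDC0068 (edgeR adjusted p = 0.0345). Reads in the shared stretch may be counted for either gene.

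ERBB2, the usual partner of ERBB3 (ENSG00000141736, chromosome 17, 39700064 to 39728662, plus strand), changed less. Its values were 172 and 178 CPM in DMSO, 186 and 187 under GDC0068, and 193 and 188 under Degrader. Both drug arms lay above DMSO in a narrow range. The log2 fold change was 0.13 under Degrader (SE 0.0482, edgeR adjusted p = 0.104; 0.00717 with the block) and 0.09 under GDC0068 (SE 0.0483, edgeR adjusted p = 0.321; 0.0737 with the block). The ratio of ERBB3 to ERBB2 per kb was 1.04 and 1.07 in DMSO, 1.12 and 1.29 under GDC0068, and 1.37 and 1.52 under Degrader.

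ERBB4, a neuregulin receptor (ENSG00000178568, chromosome 2, 211375721 to 212538782, minus strand), has the longest interval of the 8 at 1163062 bp. Whether a change differed along this length after 5 h was not tested. ERBB4 had 528 and 616 CPM in DMSO, 584 and 721 under GDC0068, and 634 and 751 under Degrader. Replicate 2 was higher than replicate 1 in each arm, by 0.22 to 0.30 on the log2 scale, and GDC0068 replicate 1 lay below DMSO replicate 2. Its log2 fold change of 0.28 under Degrader was therefore not called without the block (SE 0.107, edgeR adjusted p = 0.104), and was called with it (SE 0.036, edgeR adjusted p = 1.03e-06). Under GDC0068 the same held, with 0.19 (SE 0.107, edgeR adjusted p = 0.351) and an edgeR adjusted p of 5.14e-04 with the block. Leaving out 1 library at a time moved the log2 fold change of ERBB4 between 0.14 (without Degrader replicate 2) and 0.39 (without Degrader replicate 1) under Degrader, and between 0.02 (without GDC0068 replicate 2) and 0.33 (without GDC0068 replicate 1) under GDC0068.

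EGFR, the receptor for epidermal growth factor (ENSG00000146648, chromosome 7, 55019017 to 55211628, plus strand), had 54.9 and 60.0 CPM in DMSO, 59.7 and 66.5 under GDC0068, and 56.1 and 64.2 under Degrader. All 3 arms overlapped. Its log2 fold change was 0.14 under GDC0068 (95% interval -0.03 to 0.31, edgeR adjusted p = 0.359; 0.0467 with the block) and 0.07 under Degrader (-0.10 to 0.24, edgeR adjusted p = 0.619; 0.331 with the block). EGFR had the lowest mean change of the ERBB genes under Degrader.

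**Figure D3:**
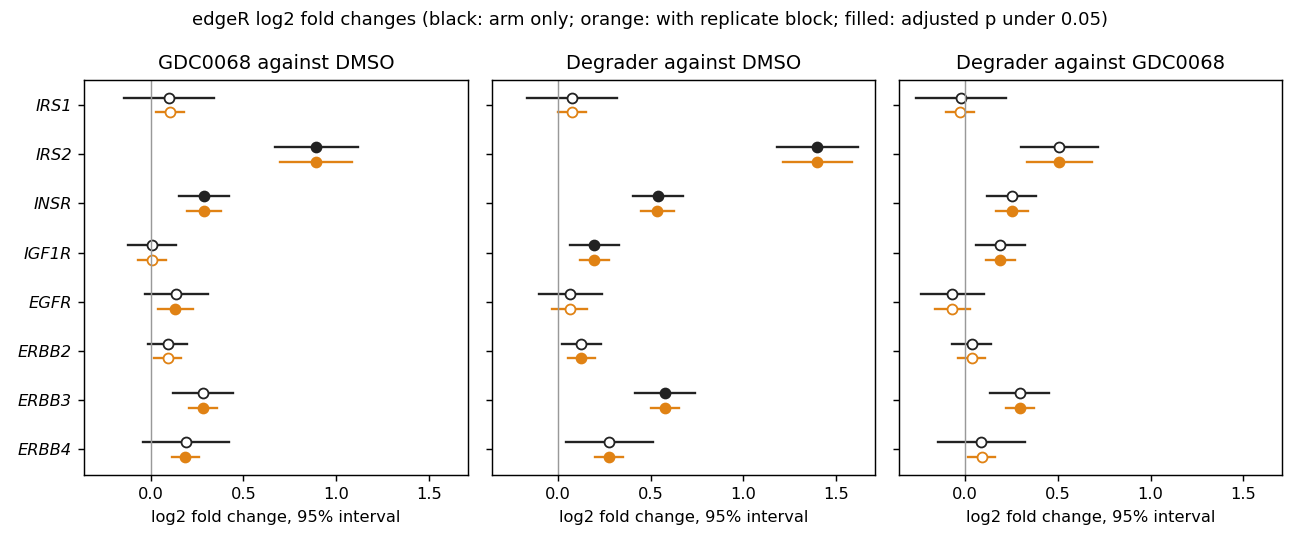
edgeR log2 fold changes with 95% intervals for the 8 genes in the 3 comparisons, in black from the model with the arm only and in orange with the replicate number as a block, where filled points have an adjusted p under 0.05. The block leaves the estimates in place and narrows the intervals, most for IRS1 and ERBB4, and IRS2 stands apart at 0.89 under GDC0068 and 1.40 under Degrader.

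Degrader was also set against GDC0068 for these genes, at the unequal doses given above. The arms differ in compound and dose, so loss of AKT protein cannot be told apart from other differences between the compounds. None of the 8 was called by edgeR, where 0.266% of all genes were (0.116% higher and 0.151% lower under Degrader). At an unadjusted p under 0.05 there were 4, all higher under Degrader: IRS2, INSR, ERBB3 and IGF1R, where 6.3% of all genes were higher and 7.83% lower. The same 4 were called higher with the block, where 10.4% of all genes were called, 5.03% higher and 5.35% lower, and DESeq2 called IRS2 and ERBB3 higher, where it called 0.323% of genes higher and 0.507% lower. In 5 of 8 genes both Degrader libraries lay above both GDC0068 libraries and in 0 below (22.1% and 22.9% of all genes). In both experiments 6 of 8 were higher under Degrader and 1, EGFR, was lower (32.5% and 33% of all genes).

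IRS2 was higher under Degrader by 0.51 on the log2 scale (95% interval 0.30 to 0.71, edgeR adjusted p = 0.0614; 2.74e-04 with the block), and by 0.34 and 0.67 in the 2 experiments. For ERBB3 the difference was 0.29 (0.13 to 0.45, edgeR adjusted p = 0.115; 4.46e-06 with the block), and for INSR it was 0.25 (0.12 to 0.38, edgeR adjusted p = 0.111; 3.50e-04 with the block). The INSR difference was 0.25 in each experiment. IGF1R was higher by 0.19 (0.06 to 0.32, edgeR adjusted p = 0.191; 0.00161 with the block), the gene for which GDC0068 had given a change near 0. For the other 4 genes a difference was not called in either model, with intervals of -0.26 to 0.22 for IRS1, -0.24 to 0.10 for EGFR, -0.07 to 0.14 for ERBB2 and -0.15 to 0.32 for ERBB4, so differences within these ranges were not resolved.

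Genes around the receptors were read from 5 lists written from general knowledge. Of 11 ERBB ligand genes 7 had a row, and 0 were called under either drug by edgeR or DESeq2. Under Degrader 3 had an unadjusted p under 0.05, and the same number was called higher with the block: EGF, AREG (amphiregulin) and EPGN. Over all genes 14.7% were higher at that unadjusted p in edgeR, and 15.1% were called higher with the block. The neuregulin genes, which encode ligands of ERBB3 and ERBB4, were on the list but had no row under the names sought. EGF had 21.8 and 21.9 CPM in DMSO, 21.6 and 20.7 under GDC0068, and 24.8 and 27.0 under Degrader, a log2 fold change of 0.24 under Degrader (edgeR adjusted p = 0.0723; 0.0189 with the block). AREG was at 59.5 and 52.4 CPM in DMSO, 66.1 and 59.4 with GDC0068 and 71.8 and 59.9 with Degrader, and with the block it was called higher under GDC0068 as well (edgeR adjusted p = 0.0134). The median of the list was 0.23 under Degrader and 0.02 under GDC0068.

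Of 12 genes for insulin and its relatives and their binding proteins 7 had a row, and 0 were called under either drug by edgeR or DESeq2 (unadjusted, 1 lower under Degrader and 0 under GDC0068). With the block IGFBP4 was called higher under both drugs and IGFBP2, which binds insulin-like growth factors outside the cell, lower under Degrader. Over all genes the block called 15.1% higher and 15.7% lower under Degrader, and 8.87% higher under GDC0068. The medians of the list were -0.01 under Degrader and -0.05 under GDC0068.

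Among 23 receptor adaptors tested, 3 rose and 2 fell under Degrader, where 7.39% of all genes rose and 7.88% fell. Under GDC0068 1 rose and 1 fell, where 1.7% of all genes rose and 1.88% fell. The list medians were 0.00 under both drugs. GRB7, an adaptor that binds ERBB receptors and insulin receptors, rose most under Degrader (ENSG00000141738, chromosome 17, 39738352 to 39747285, plus strand). It had 38.6 and 39.6 CPM in DMSO, 46.1 and 48.4 under GDC0068, and 63.8 and 58.2 under Degrader. Degrader raised it by 0.64 on the log2 scale (SE 0.0637, edgeR adjusted p = 1.84e-04) and GDC0068 by 0.27 (edgeR adjusted p = 0.0429), and the drugs differed by 0.37 (SE 0.0631, edgeR adjusted p = 0.0410). The call between the drugs was lost in the fit to the 4 libraries compared (edgeR adjusted p = 0.0685) and without any one library (edgeR adjusted p from 0.0577 to 0.296). The GDC0068 call of GRB7 was lost with DESeq2 (adjusted p = 0.0694), in the fit to the 4 libraries compared (edgeR adjusted p = 0.0524), and without any one library other than Degrader replicate 2 (edgeR adjusted p from 0.0511 to 0.230). GRB7 starts 9689 bp beyond the end of the ERBB2 interval, on the same strand. GAB1, a docking protein that recruits PI3K to receptors, had a rise of 0.29 with Degrader (edgeR adjusted p = 0.00277). PTPN11, which encodes the phosphatase SHP2, fell by 0.20 under GDC0068 and by 0.16 under Degrader on the log2 scale (edgeR adjusted p of 0.0454 and 0.0441), calls that DESeq2 did not make (adjusted p of 0.0610 and 0.0958). CRK, a small adaptor, fell by 0.25 under Degrader (edgeR adjusted p = 0.00905), a call lost without DMSO replicate 1 or either Degrader library (edgeR adjusted p from 0.0510 to 0.0812). The PTPN11 calls were lost without any one DMSO library or library of the drug concerned (edgeR adjusted p from 0.0978 to 0.214).

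All 24 negative regulators of receptors had a row, and 3 rose and 3 fell under Degrader, where 7.39% of all genes rose and 7.88% fell. Under GDC0068 1 rose and 0 fell, where 1.7% of all genes rose and 1.88% fell. The list medians were 0.02 under Degrader and 0.03 under GDC0068. CBLB, a ubiquitin ligase that marks active receptors for degradation, rose under both drugs: its libraries read 52.0 and 53.3 CPM in DMSO, 63.0 and 64.8 under GDC0068, and 66.5 and 69.4 with Degrader. The log2 fold changes were 0.28 under GDC0068 (edgeR adjusted p = 0.0211) and 0.37 under Degrader (edgeR adjusted p = 0.00140). The GDC0068 call of CBLB was lost without any one DMSO or GDC0068 library (edgeR adjusted p from 0.0550 to 0.163). With Degrader NEDD4L, another ubiquitin ligase, rose by 0.35 (edgeR adjusted p = 0.00452), and LRIG3, of a family that restrains ERBB receptors, by 0.37 (edgeR adjusted p = 0.00692). CBLC, a relative of CBLB named after its value was seen, went the other way, and fell by 0.32 with Degrader (log2 scale, edgeR adjusted p = 0.0132). Without DMSO replicate 1 or without Degrader replicate 2 only 1 of these 24 genes was called under Degrader.

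Of the receptor tyrosine kinases outside the insulin and ERBB families 31 had a row. Under Degrader 0 rose and 8 fell, with a median of -0.11, where 7.39% of all genes rose and 7.88% fell. Under GDC0068 0 rose and 1 fell, with a median of -0.06, a count near the 1.88% of all genes that fell. The list was not tested against the 8 genes. DESeq2 called 6 of the 31 under Degrader and 1 under GDC0068, all lower, where it called 7.15% and 2.18% of genes lower. At an unadjusted p under 0.05 in edgeR 3 were higher and 11 lower under Degrader (14.7% and 15.2% of all genes). Under GDC0068 3 were higher and 5 lower (10.4% and 9.55% of all genes). RET, the receptor for the glial cell line-derived factors and a known estrogen target in breast cancer, fell most under Degrader. It had 18.6 and 15.2 CPM in DMSO, 11.6 and 11.2 under GDC0068, and 9.09 and 10.2 under Degrader, which gave log2 fold changes of -0.57 (edgeR adjusted p = 0.0267) and -0.82 (edgeR adjusted p = 0.00133). The GDC0068 call of RET was lost without DMSO replicate 1 or either GDC0068 library (edgeR adjusted p from 0.0732 to 0.200). TYRO3 fell by 0.58 (edgeR adjusted p = 0.00113) and FGFR4, a fibroblast growth factor receptor, by 0.59 (edgeR adjusted p = 0.00151) under Degrader on the log2 scale. With the block 4 of the 31 were called higher (FGFR2, DDR1, PTK7 and LMTK3) and 11 lower under Degrader (15.1% and 15.7% of all genes). Under GDC0068 the block called 3 higher (FGFR2, PTK7 and LMTK3) and 4 lower (8.87% and 8.91% of all genes). Leaving out any one of the DMSO or Degrader libraries left 4 or 5 of the 31 called.

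**Figure D4:**
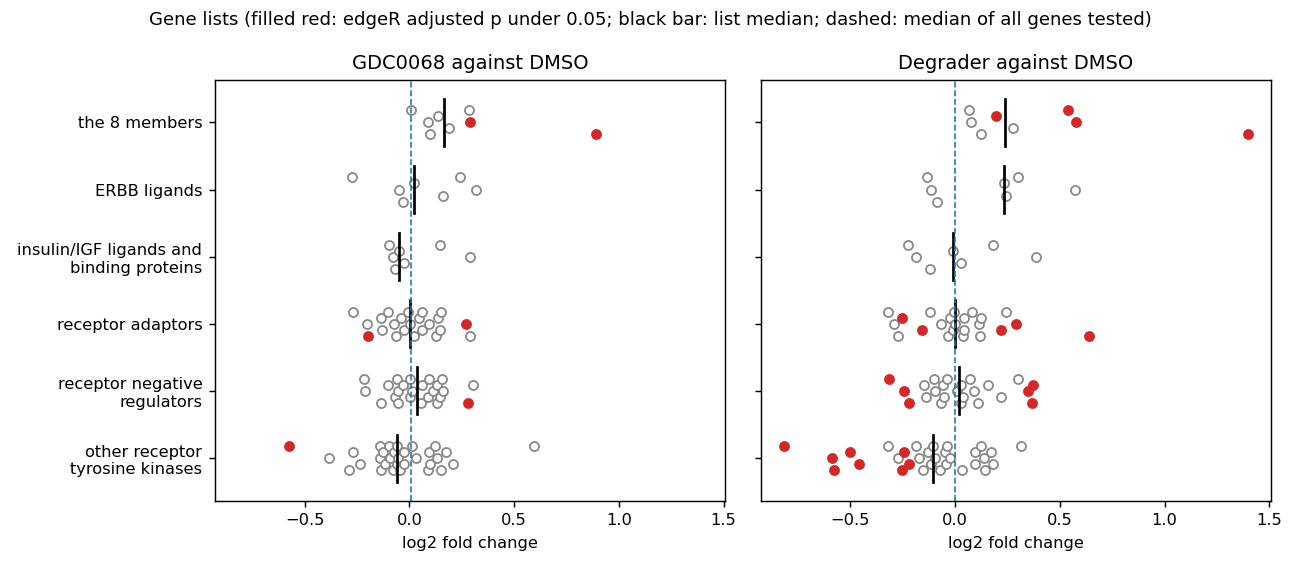
edgeR log2 fold changes of the 8 genes and of the 5 lists under each drug, where each point is a gene, filled red where the adjusted p is under 0.05, with a black bar at the list median and a dashed line at the median of all genes tested. The medians under Degrader are 0.24 for the 8 genes and -0.11 for the other receptor tyrosine kinases.

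Genes whose profile over the 6 libraries lay closest to each member were found by the Euclidean distance between log2 CPM values after each gene's own mean was removed, among 18922 to 18924 genes whose mean reached 1 CPM. The genes nearest to IRS2 were HBP1 and CALCOCO1, at distances of 0.361 and 0.382. Values were not scaled, so such a distance grows with the size of a change. HBP1 rose by 1.25 under Degrader and 0.64 under GDC0068 on the log2 scale, and CALCOCO1 by 1.25 and 0.78. INSR was nearest to LNX1 (0.0401) and TSPAN12 (0.0475). LNX1 stood at 43.9, 54.0 and 65.2 CPM in DMSO, GDC0068 and Degrader. ERBB3 was nearest to CDIPT (0.0586) and FAAH2 (0.0747), and ERBB4 to SATB1 (0.039) and DLG2 (0.0498). With 3 arms and 2 experiments, such likeness is a description of 6 values.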

How the data were processed

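PRO-seq libraries of T47D cells in 3 arms with 2 replicates each were analysed. The authors deposited raw counts per gene interval, whole numbers with unequal totals, in 1 table. Per the submitters' processing notes, cutadapt 1.14, Bowtie 1.2.2, SAMtools 1.3.1, HISAT2 2.2.1 and limma were used, and the builds hg38 (GRCh38) and dm3, a fly genome, are named with no role. The counting tool, use of strand, duplicate removal and any use of a spike-in are not given in the sources used here. Each could change the counts: without stated use of strand, antisense reads can enter a gene, and normalisation without a spike-in removes a change common to all genes. Positions are those of the table, with starts counted from 1; 91.7% of 11158 intervals found by name began within 500 bp of a RefSeq (GRCh38.p14) start site. Promoter sequences come from a RefSeq table in which 7 of the 8 members were matched and ERBB3 had no entry.

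The analysis used edgeR 4.0.16 under R 4.3.3. The filter filterByExpr (minimum count 10, minimum total 15) removed 431 genes and left 19902. TMM factors scaled the libraries, and all 6 entered one quasi-likelihood fit with a term per arm and 3 residual degrees of freedom. A gene was called where its p, adjusted by Benjamini-Hochberg over all genes tested, was under 0.05. SE is the log2 fold change divided by the square root of F, and 95% intervals use the moderated degrees of freedom. SD is over 2 libraries. Whether replicates are separate cultures rests on the series' mention of 2 independent experiments. Same-numbered libraries deviated together from their arm means (correlations across genes of 0.177, 0.220 and 0.204 for the 3 pairs of arms), so the numbers were taken as pairing the samples. The fit with the replicate block, DESeq2 1.42.0 and other alternatives were run beside it, and the script was tested on simulated data.

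The members, the lists and the rule for naming genes were chosen with earlier results of these data known. The rule named all members, from each list up to 3 genes called against DMSO, those of smallest adjusted p, any called between the drugs, and the 2 genes most like each member, not all of which are given.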

Additional observations from a re-analysis of the deposited data

How the results depend on the processing

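The replicate block raised the genes called from 3039 to 6114 (Degrader), from 712 to 3540 (GDC0068) and from 53 to 2065 (Degrader against GDC0068), and the members called numbered 6, 5 and 4 against 4, 2 and 0; beyond the changes given beside the results, the block changed no other member call. Between the drugs, DESeq2 called 136 genes with 2 members, robust estimation 116 with 1 member, and the fit to the 4 libraries compared 23 with 0. Under Degrader, the members called were 3 without the filter on low counts.
Leaving out 1 library at a time gave 931 to 3217 genes and 3 to 4 members under Degrader, 37 to 546 genes and 1 to 3 members under GDC0068, and 5 to 63 genes and 0 to 1 members between the drugs. IRS2 ranged from 1.32 to 1.46 on the log2 scale under Degrader and from 0.79 to 0.98 under GDC0068, INSR from 0.47 to 0.60 and ERBB3 from 0.51 to 0.64 under Degrader. Of the members and the genes named from the lists, a sign turned for changes that were not called without the block: IRS1 from -0.0856 to 0.229 for Degrader, -0.0398 to 0.251 for GDC0068 and -0.179 to 0.119 between the drugs, EGFR from -0.0430 to 0.160 for Degrader and -0.174 to 0.0286 between the drugs, IGF1R from -0.0533 to 0.0574 for GDC0068, ERBB4 from -0.0554 to 0.254 between the drugs, IGFBP4 from -0.0525 to 0.457 for Degrader, -0.0853 to 0.424 for GDC0068 and -0.160 to 0.204 between the drugs, and IGFBP2 from -0.187 to 0.0170 for GDC0068. Between the drugs it also turned for CRK (-0.0980 to 0.00282), AREG (-0.0607 to 0.194), IGFBP2 (-0.203 to 0.000593), DDR1 (-0.00619 to 0.114), PTK7 (-0.00809 to 0.0207) and LMTK3 (-0.0417 to 0.0363). The cause was not tested, beyond the smaller number of samples. Under the other alternatives, 130 of the member changes kept their side of the threshold, 13 came past it, 1 fell short of it and 0 turned.

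For the lists and the genes named from them, these alternatives were added after the data were seen. For Degrader, GDC0068 and the drugs against each other, the block called 3, 1 and 1 ERBB ligands, 2, 1 and 0 insulin-related genes, 13, 5 and 2 adaptors, 12, 7 and 4 negative regulators, and 15, 7 and 5 other receptor kinases. In the same order, the block called 30.7%, 17.8% and 10.4% of all genes. DESeq2 and the fit to 4 libraries called 0 adaptors under GDC0068, the latter 0 between the drugs, and DESeq2 and robust estimation called 1 other receptor kinase between the drugs. With 1 library left out, the ranges were 0 to 1 ERBB ligands, 2 to 6 adaptors, 1 to 7 negative regulators and 4 to 9 other receptor kinases under Degrader, 0 to 1 of the adaptors, negative regulators and other receptor kinases under GDC0068, and 0 to 0 adaptors and 0 to 1 other receptor kinases between the drugs. Counting error in the lowest library of each member was 0.715% to 5.8%.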
